A study of Mus musculus with 8 samples.

Results

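Genes of capillary and general endothelium were followed in the right ventricle of mice with an error-prone mitochondrial DNA polymerase. They were Aqp1, Rbp7, Fabp4, Fabp5, Gpihbp1, Meox2, Tcf15, Pecam1, Cdh5 and Kdr. The genes were taken by symbol from the deposited expression table, in which all 10 are present among 55421 genes. The set was drawn up with the genotype differences of these same libraries known. The differences of the 10 genes are therefore given as a description, without a test. The question put to them was whether Aqp1 and Rbp7 moved apart from the general endothelial markers.

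The study compared 4 WT mice with 4 POLG mice, which were homozygous for the D257A allele of Polg. Both came from heterozygous parents of the line B6.129S7(Cg)-Polgtm1Prol/J. All 8 mice were female and 9 to 10 months old, and the labels give no treatment. The D257A allele removes the proofreading activity of polymerase gamma, so that mitochondrial DNA gathers mutations, and every cell of the animal carries it. Poly(A) RNA of the flash-frozen right ventricle was sequenced, with 1 library per mouse, named A to D in WT and E to H in POLG.

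Capillary endothelium of the heart lies against the muscle cells and passes water and fatty acids to them. Lipoprotein lipase, held on the capillary wall by GPIHBP1, frees fatty acids from triglyceride-rich particles, and small lipid-binding proteins carry them through the endothelial cell. In mice, the transcription factors MEOX2 and TCF15 form a pair that drives genes of fatty acid uptake in heart endothelium.

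The values are FPKM, fragments per kilobase of transcript scaled to the mapped total, which correct for transcript length and library depth. The smallest steps between low values gave a rough depth of 13.5 to 22.7 M fragments, which was least in WT C, POLG H and WT D. Genes listed for ventricular muscle summed to between 9008 and 14368 FPKM in every library, which alone does not settle the ventricular label. Atrial genes summed to 263 FPKM in WT C and 636 FPKM in WT D, against 38.3 and 52.6 FPKM in WT A and WT B and 67.5 to 200 FPKM in POLG. Genes of mesothelium, the lining of the heart's surface, summed to 12.3 and 11 FPKM in WT C and WT D and to at most 3.85 FPKM in the other 6 libraries. WT C and WT D thus stand apart from WT A and WT B, and results are also given without them.

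Fold changes below are POLG over WT on the scale of log2(FPKM + 1), with a standard error from limma, a linear model fitted to every gene that averaged 1 FPKM or more. Of these 10236 genes, 0.694% passed at an adjusted p under 0.05 as higher in POLG and 2.12% as lower. These are 71 and 217 genes, which became 129 and 122 under median ratio scaling and 136 and 139 under quantile normalization. An unadjusted limma p under 0.05 was found for 2277 of the 10236 genes. The 4 POLG values all lay above the 4 WT values for 2.96% of the genes and all below them for 12.9%. The median fold change over all genes was -0.09 on the log2 scale, and 31.7% of them had a positive one. All 10 genes of the set entered the fit. Rbp7 and Gpihbp1 were among those that passed as higher and Aqp1 among those that passed as lower. Since the set was chosen on this contrast, nothing is read from these counts.

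The bases upstream of Aqp1 and Rbp7 are shown because these genes moved in opposite directions. RefSeq (GRCm38.p6) gave a promoter for Aqp1, Kdr, Meox2 and Rbp7. The 250 bases before the RefSeq start site are given for Aqp1 on the plus strand (chr6:55336049-55336298) and Rbp7 on the minus strand (chr4:149454969-149455218). The Aqp1 transcript behind the FPKM starts further downstream, at 55336432. The Aqp1 window therefore leaves out the bases just before that start, and motifs there were not searched. Capitals mark matches, on either strand, to the E-box CANNTG and the GC box GGGCGG.
Aqp1: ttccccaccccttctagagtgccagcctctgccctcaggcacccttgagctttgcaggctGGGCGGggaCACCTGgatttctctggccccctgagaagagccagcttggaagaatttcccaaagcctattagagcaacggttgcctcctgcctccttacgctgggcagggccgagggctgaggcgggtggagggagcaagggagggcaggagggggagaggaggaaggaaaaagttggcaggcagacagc
Rbp7: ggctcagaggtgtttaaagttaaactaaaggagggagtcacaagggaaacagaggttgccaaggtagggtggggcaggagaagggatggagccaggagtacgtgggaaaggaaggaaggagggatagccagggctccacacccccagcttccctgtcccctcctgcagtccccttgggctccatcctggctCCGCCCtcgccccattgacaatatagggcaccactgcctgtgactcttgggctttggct
The Aqp1 window holds 1 GC box, which begins 190 bases before the start, and 1 E-box, which begins 181 bases before it. The Rbp7 window holds 1 GC box, read on the opposite strand, which begins 59 bases before the start, and no E-box. A GC box was present in 32.7% of 32851 mouse promoters of the same length, and an E-box, the kind of site that basic helix-loop-helix proteins such as TCF15 recognise, in 66.2%. The homeodomain core TAATTA (4.84% of promoters), the nuclear receptor motif AGGTCA (14.0%) and the TATA box TATAAA (12.4%) had no match in either window. GC content was 62.0% in the Aqp1 window and 58.4% in that of Rbp7, against a median of 52.4%. These letters are a description of the windows and no measure of binding.

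Aqp1 encodes a water channel of capillary endothelium and of red blood cells (ENSMUSG00000004655.5, mm10, chromosome 6, 55336432 to 55348555, plus strand, 1 annotated transcript). Its FPKM was 120, 138, 111 and 102 in WT A to D and 34.1, 63.9, 35.1 and 25.5 in POLG E to H. Every POLG library lay below every WT library, and POLG F was the highest of its group. The mean was 118 ± 15.3 FPKM among WT and 39.6 ± 16.7 FPKM among POLG animals (SD, n = 4 in both), so that WT stood 2.97 times higher. On the log2 scale POLG was lower by 1.62 (log2 fold change -1.62, standard error 0.24), the 11th most negative of the 10236 genes. The POLG values varied more among themselves than the WT values, with a coefficient of variation of 42.2% against 13.0%.

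Aqp1 was the most abundant of the 10 genes in each WT library. In each POLG library Fabp4 stood above it, and in POLG E, POLG G and POLG H its level was close to that of Cdh5 (ratios of 0.951, 1.0 and 1.01). The Aqp1 signal rests on an estimated 1015 fragments in POLG H and more in the other libraries. Of the other 11 aquaporins only Aqp4 and Aqp7 reached a mean of 1 FPKM, and neither passed the limma test, adjusted or not. Aqp7, which conducts water and glycerol, had 5.34 ± 0.862 FPKM in WT and 5.29 ± 1.74 FPKM in POLG (log2 fold change -0.04, limma adjusted p = 0.923). Aqp8, too low for the test, read 0.140 to 0.782 FPKM in WT and 1.03 to 1.29 FPKM in POLG.

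Rbp7 encodes a cellular retinol-binding protein that in mice is found in endothelium (ENSMUSG00000028996.9, chromosome 4, 149449687 to 149454978, minus strand, 3 transcripts). Its FPKM was 6.03, 10.8, 5.63 and 5.0 in WT A to D and 17.1, 16.5, 16.7 and 20.5 in POLG E to H. Every POLG library lay above every WT library, with WT B well above the other WT animals and POLG H above the other POLG animals. The mean was 6.87 ± 2.66 FPKM among WT and 17.7 ± 1.89 FPKM among POLG animals (SD, n = 4 here and below), a ratio of 2.58 and a log2 fold change of 1.30 (standard error 0.20). Here the spread was the wider in WT, at 38.8% against 10.7%.

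The ratio of Aqp1 to Rbp7 within a library does not depend on its depth. It was 19.9, 12.8, 19.7 and 20.4 in WT A to D and 2.0, 3.86, 2.10 and 1.24 in POLG E to H. Every POLG library lay below WT in Aqp1 and above WT in Rbp7, so the ratio had to separate the groups. The animals nearest to each other were WT B and POLG F. WT B had the highest Rbp7 level of its group, and POLG F the highest Aqp1 level of its group.

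**Figure D1:**
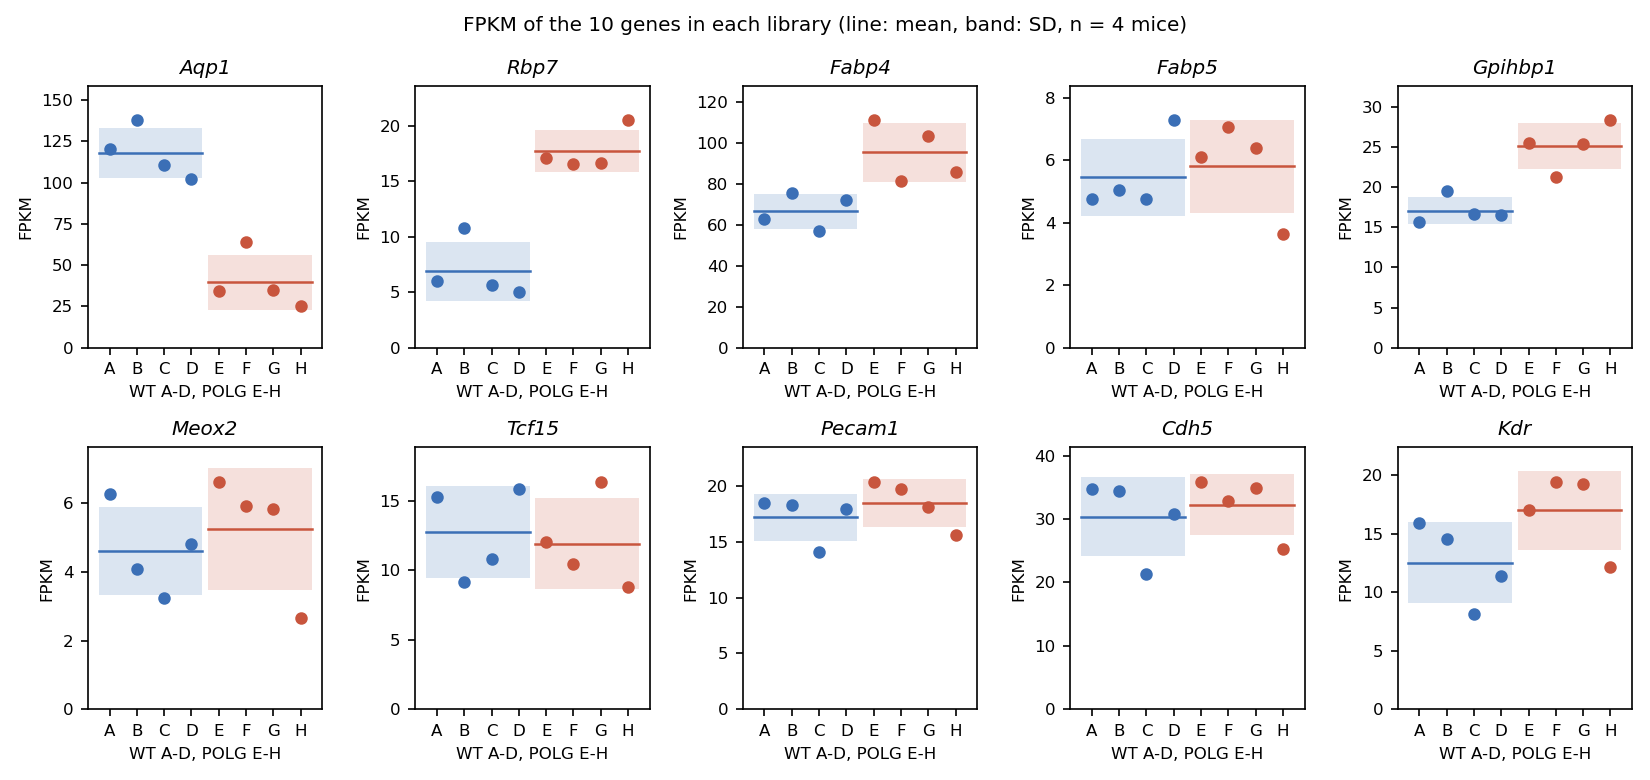
FPKM (vertical axes, each starting at 0) of the 10 genes in libraries A to D (WT, blue) and E to H (POLG, red), with the group mean as a line and the SD as a band (n = 4 mice). Aqp1 is lower in all 4 POLG libraries, Rbp7, Fabp4 and Gpihbp1 are higher in all 4, and the other 6 genes overlap.

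Fabp4 encodes a fatty acid-binding protein of capillary endothelium, adipocytes and macrophages (ENSMUSG00000062515.3, chromosome 3, 10204088 to 10208576, minus strand, 2 transcripts). Its FPKM was 62.5, 75.4, 56.8 and 71.8 in WT A to D and 111, 81.1, 103 and 85.6 in POLG E to H. The groups did not overlap, although POLG F and WT B were close. The mean was 66.6 ± 8.52 FPKM in WT and 95.3 ± 14.2 FPKM in POLG, with a log2 fold change of 0.51 (standard error 0.13).

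Fabp5 encodes a relative of Fabp4 that also occurs in endothelium, and lies 187 kb from it on chromosome 3 (ENSMUSG00000027533.10, 10012548 to 10016607, plus strand, 2 transcripts). Its FPKM was 4.76, 5.06, 4.75 and 7.29 in WT and 6.12, 7.08, 6.39 and 3.65 in POLG. The highest value was that of WT D and the lowest that of POLG H, and the groups overlapped (log2 fold change 0.06, standard error 0.19). The Fabp5 value is less certain than the others, because 5.48% of its 50-base stretches also occur in 5 other annotated genes, Fabp5l2 among them. Of the other 9 genes only Pecam1 shared such stretches (0.998%). Fabp4 stood above Fabp5 by 9.85 to 14.9 times in WT and 11.5 to 23.4 times in POLG.

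Of 12 other intracellular lipid-binding proteins, 3 could be tested and 1 passed as higher (0.694% of all genes did). This was Fabp3, the fatty acid-binding protein of heart muscle cells, with 2539 ± 262 FPKM in WT and 3513 ± 168 FPKM in POLG (log2 fold change 0.47, limma adjusted p = 0.0302), higher in each POLG library than in any WT library. Without WT C and WT D its adjusted p was 0.105, and it also missed the threshold without WT D, or without any 1 of the 4 POLG libraries (adjusted p up to 0.0892). With all libraries kept, its limma adjusted p was 0.103 under quantile normalization and 0.0892 with no filter on low values. None of 9 tested genes of retinoid transport, synthesis and breakdown passed. An unadjusted limma p under 0.05 was found for 2 of them, against 2277 of all 10236 genes.

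Gpihbp1 encodes the protein that carries lipoprotein lipase to the capillary lumen (ENSMUSG00000022579.10, chromosome 15, 75596628 to 75599481, plus strand, 5 transcripts). Its FPKM was 15.7, 19.5, 16.7 and 16.5 in WT A to D and 25.5, 21.3, 25.4 and 28.4 in POLG E to H. All POLG values exceeded all WT values, with WT B and POLG F again the nearest to each other. The mean was 17.1 ± 1.68 FPKM in WT and 25.2 ± 2.91 FPKM in POLG, with a log2 fold change of 0.53 (standard error 0.10). Lpl, the lipase itself, read 298 ± 64.1 FPKM in WT and 268 ± 15.6 FPKM in POLG (log2 fold change -0.12, limma adjusted p = 0.646). Angptl4, an inhibitor of the lipase, read 0.196 to 1.46 FPKM in WT and 1.33 to 7.94 FPKM in POLG, with a log2 fold change of 1.42 (standard error 0.42) that did not pass (limma adjusted p = 0.105). None of the 6 tested genes around the lipase passed. Of the 6, 1, Angptl4, had an unadjusted limma p under 0.05, against 2277 of all 10236 genes.

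Meox2, a homeodomain factor, is the least abundant of the 10 genes by its mean in both groups (ENSMUSG00000036144.6, chromosome 12, 37108540 to 37179534, plus strand, 1 transcript). Its FPKM was 6.26, 4.08, 3.24 and 4.82 in WT and 6.63, 5.93, 5.83 and 2.65 in POLG. The groups overlapped, and the lowest value was that of POLG H (log2 fold change 0.13, standard error 0.25). At this level Meox2 rests on an estimated 94.8 to 341 fragments per library. Another annotated gene, Gm48617, overlaps its span on the same strand.

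Tcf15, the basic helix-loop-helix partner of Meox2, lies on chromosome 2 (ENSMUSG00000068079.5, 152143561 to 152149097, plus strand, 1 transcript). Its FPKM was 15.3, 9.15, 10.8 and 15.8 in WT and 12.0, 10.4, 16.4 and 8.80 in POLG. High and low values occurred in both groups (log2 fold change -0.09, standard error 0.21). Neither of these factors therefore differed between the genotypes by more than its spread, and the standard errors leave room for moderate differences. Of 10 other tested transcription factors of endothelium, all had a positive fold change, against 31.7% of all genes, and none passed. An unadjusted limma p under 0.05 was found for 2 of these factors, against 2277 of all 10236 genes. The smallest adjusted p was that of Klf2, a factor induced by blood flow, with 51.6 ± 22.7 FPKM in WT and 87.5 ± 16.3 FPKM in POLG (log2 fold change 0.83, limma adjusted p = 0.140).

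Pecam1, an adhesion molecule of all endothelium, lies on chromosome 11 (ENSMUSG00000020717.19, 106654217 to 106750628, minus strand, 8 transcripts). Its FPKM was 18.5, 18.4, 14.1 and 18 in WT and 20.4, 19.8, 18.1 and 15.6 in POLG. WT C was low in its group, and the groups overlapped (log2 fold change 0.10, standard error 0.12).

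Cdh5, the cadherin of endothelial junctions, lies on chromosome 8 (ENSMUSG00000031871.9, 104101625 to 104144511, plus strand, 2 transcripts). Its FPKM was 34.7, 34.5, 21.4 and 30.8 in WT and 35.9, 32.9, 34.9 and 25.3 in POLG. The lowest libraries were WT C and POLG H, and the groups overlapped (log2 fold change 0.10, standard error 0.17). An antisense gene, Gm29682, overlaps Cdh5, and whether the counting used strand is not given in the sources used here.

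Kdr, the main signalling receptor for VEGF-A, lies on chromosome 5 (ENSMUSG00000062960.10, 75932827 to 75978458, minus strand, 3 transcripts). Its FPKM was 15.9, 14.6, 8.16 and 11.3 in WT and 17.0, 19.5, 19.3 and 12.2 in POLG. POLG E, POLG F and POLG G exceeded all WT libraries, while POLG H fell among them (log2 fold change 0.43, standard error 0.21). The ratio of Kdr to Cdh5 in a library was 0.368 to 0.458 in WT and 0.474 to 0.591 in POLG, without overlap. This pair was chosen after values were seen. Relative to 16 other pan-endothelial genes, described below, Kdr overlapped between the groups. None of 12 other growth factors and receptors of endothelium passed. An unadjusted limma p under 0.05 was found for 2 of them, against 2277 of all 10236 genes. The smallest adjusted p was that of Vegfb, with 131 ± 8.16 FPKM in WT and 109 ± 3.35 FPKM in POLG (log2 fold change -0.26, limma adjusted p = 0.0737).

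By mean level the order in WT was Aqp1, Fabp4, Cdh5, Pecam1, Gpihbp1, Tcf15, Kdr, Rbp7, Fabp5 and Meox2. In POLG it was Fabp4, Aqp1, Cdh5, Gpihbp1, Pecam1, Rbp7, Kdr, Tcf15, Fabp5 and Meox2. Within each library, some neighbours in this order changed places. In WT these were Pecam1 with Gpihbp1, Tcf15 with Kdr, Rbp7 with Fabp5, and Fabp5 with Meox2, while Gpihbp1 stood above Tcf15 and Kdr above Rbp7 in all 4 libraries although their ranges overlapped. In POLG the neighbours that changed places were Aqp1 with Cdh5, Cdh5 with Gpihbp1, Pecam1 with Rbp7, Rbp7 with Kdr, and Fabp5 with Meox2, while Kdr stood above Tcf15 in all 4 libraries although their ranges overlapped.

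To set the genes against endothelium as a whole, the mean log2(FPKM + 1) of 16 other pan-endothelial genes was taken in each library. This index was 3.13 ± 0.196 in WT and 3.25 ± 0.168 in POLG, a difference of 0.12, and the groups overlapped. It was lowest in WT C (2.87) and POLG H (3.0), both among the 3 libraries of least depth. Among the 16 genes Cldn5 varied widely, from 6.18 to 79.5 FPKM in WT, with a log2 fold change of 0.98 (standard error 0.66). In RNA of whole tissue, fewer cells of a type and less RNA per cell cannot be told apart.

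Relative to the index, Aqp1 stood at 3.67, 3.81, 3.94 and 3.61 in WT A to D and at 1.81, 2.64, 1.88 and 1.73 in POLG E to H, on the log2 scale. The groups were 0.96 apart at their closest, and POLG was lower by 1.74 (difference -1.74). Relative to the index, Rbp7 stood at -0.43, 0.25, -0.14 and -0.50 in WT and at 0.86, 0.76, 0.86 and 1.43 in POLG. These groups were 0.51 apart at their closest, and POLG was higher by 1.18. The other 8 genes overlapped on this scale. Fabp4 (difference 0.39) and Gpihbp1 (0.41), which did not overlap in FPKM, did so here, as did Kdr (0.31). Other endothelial genes were not set against the index singly, so separation on this scale cannot be called particular to Aqp1 and Rbp7. In FPKM the capillary gene Btnl9 also did not overlap, with 4.00 to 5.52 in WT and 9.31 to 11.3 in POLG.

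Pecam1 and Cdh5 each differed from the index by -0.02 between the genotypes, Meox2 by 0.02, Fabp5 by -0.06 and Tcf15 by -0.21. With Pecam1, Cdh5 and Kdr in place of the 16 genes, the difference was -1.83 for Aqp1 and 1.09 for Rbp7, again without overlap. With 1 library at a time left out, the difference from the 16 genes ranged from -1.95 to -1.64 for Aqp1 and from 1.03 to 1.33 for Rbp7. Without WT C and WT D it was -1.72 for Aqp1 and 1.06 for Rbp7, and with POLG H left out as well it was -1.63 and 0.91.

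**Figure D2:**
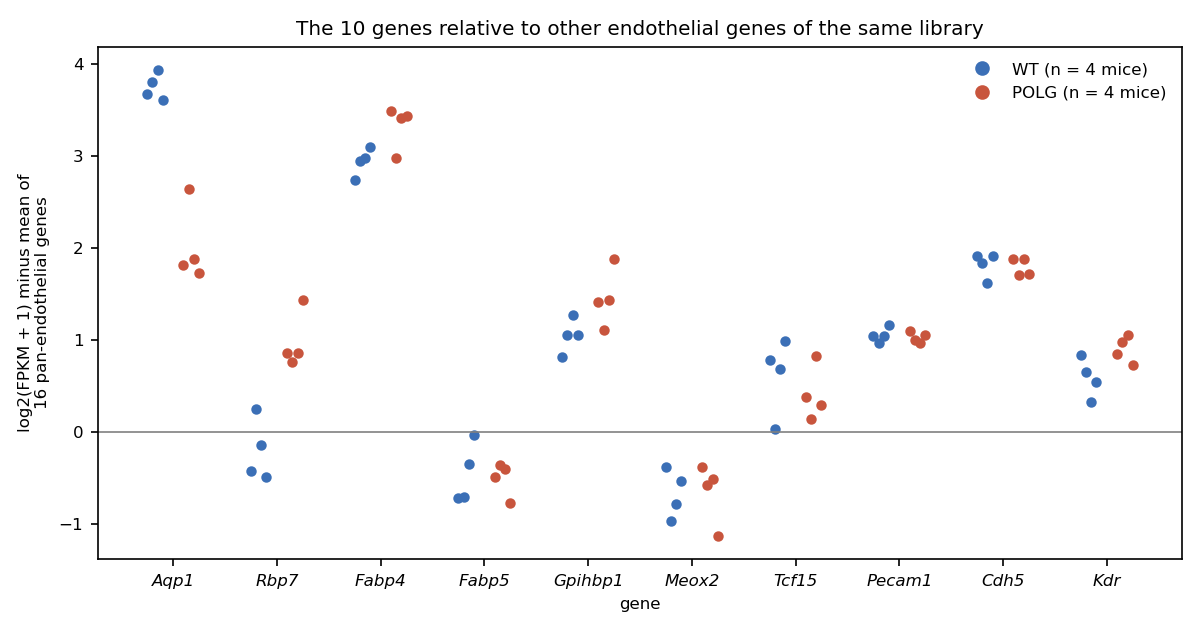
Each gene's log2(FPKM + 1) minus the mean of 16 pan-endothelial genes in the same library (vertical axis), for 4 WT (blue) and 4 POLG (red) mice. Aqp1 is lower in POLG with a gap of 0.96, Rbp7 is higher with a gap of 0.51, and the other 8 genes overlap.

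The other genes of the same cells were counted from lists of markers. Of 16 other pan-endothelial genes none passed, while 3 had an unadjusted limma p under 0.05, against 2277 of all 10236 genes. There were 10 positive and 6 negative fold changes, with a median of 0.16, against 31.7% positive and a median of -0.09 over all genes. Eng, a co-receptor for TGF-beta family ligands, had the smallest adjusted p, with 28.5 ± 4.58 FPKM in WT and 38.9 ± 1.41 FPKM in POLG (log2 fold change 0.45, limma adjusted p = 0.0720), higher in each POLG library. Robo4, a guidance receptor of vessels, had 5.12 ± 0.785 FPKM in WT and 3.63 ± 0.392 FPKM in POLG (log2 fold change -0.40, limma adjusted p = 0.0874), lower in each POLG library.

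Of 12 other genes enriched in heart capillaries, 11 were tested. Of these, 5 had an unadjusted limma p under 0.05, against 2277 of all 10236 genes. Only 1 passed, as higher (0.694% of all genes did). This was Btnl9, a butyrophilin-like membrane protein, with 5.08, 5.52, 4.00 and 4.89 FPKM in WT and 11.1, 9.52, 11.3 and 9.31 FPKM in POLG. The groups were well separated (log2 fold change 0.95, standard error 0.11, limma adjusted p = 0.00568). Without WT C and WT D the fold change was 0.84 and the adjusted p 0.0512. Cd300lg, a receptor of capillary endothelium, had 26.9 ± 4.70 FPKM in WT and 43.4 ± 6.60 FPKM in POLG, with a log2 fold change of 0.67 that missed the threshold (limma adjusted p = 0.0506).

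Pparg, a nuclear receptor for fatty acids, had 2.64 ± 0.747 FPKM in WT and 4.22 ± 0.482 FPKM in POLG (log2 fold change 0.54, limma adjusted p = 0.0817). Cd36, the fatty acid carrier of capillaries and heart muscle cells, had 204 ± 33.6 FPKM in WT and 273 ± 26.3 FPKM in POLG (log2 fold change 0.43, limma adjusted p = 0.0982). In Btnl9, Cd300lg, Pparg and Cd36 all 4 POLG values lay above all WT values, as in 2.96% of all genes. The list was written with earlier results of these data known, so nothing is read from this count. The other genes of this list included negative fold changes, down to -0.75 in Aplnr, the apelin receptor, and the list's median was 0.28.

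Over 10 lists of endothelial genes, 81 genes were tested and only Btnl9 passed (1.23%), against the 0.694% of all genes that passed as higher, and none passed as lower. At an unadjusted limma p under 0.05 there were 18 of these 81 genes, and 2277 of the 10236. Under median ratio scaling or quantile normalization 4 of the endothelial genes passed as higher, and without WT C and WT D none did. The junction, venous, arterial, endocardial and lymphatic lists had no gene that passed. Vwf, a clotting factor of endothelium, came nearest of the venous genes, with 5.57 ± 1.26 FPKM in WT and 11 ± 3.54 FPKM in POLG (log2 fold change 0.85, limma adjusted p = 0.0699).

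**Figure D3:**
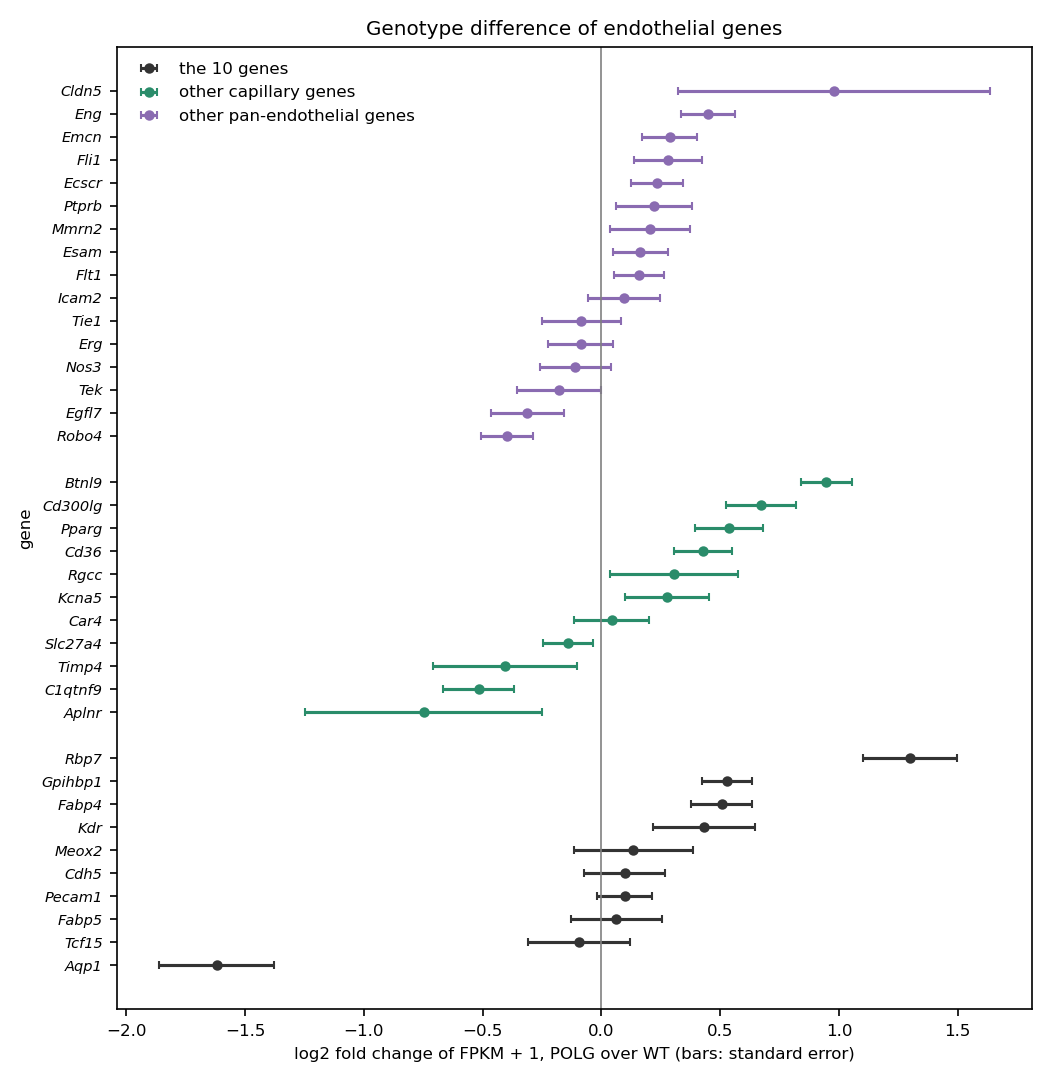
Log2 fold change of FPKM + 1, POLG over WT (horizontal axis), with standard errors, for the 10 genes (black), 11 other capillary genes (green) and 16 other pan-endothelial genes (violet). Aqp1 lies at -1.62 and Rbp7 at 1.30, while the other genes lie between -0.75 in Aplnr and 0.98 in Cldn5.

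Several of the 10 genes are also made by other cells of the heart, whose markers were summed in each library. Red blood cells carry Aqp1. The sum of 6 erythroid genes was 890 to 1956 FPKM in WT and 2722 to 4885 FPKM in POLG. Of 5 tested, 4 passed as higher, against 0.694% of all genes. All 5 had an unadjusted limma p under 0.05, against 2277 of all 10236 genes. The part of red cells in the Aqp1 level was not tested. Alas2, the heme synthesis enzyme of red cells, rose from 6.39 ± 2.22 to 20.8 ± 5.25 FPKM (log2 fold change 1.58, limma adjusted p = 0.0194). It missed the threshold without WT C, WT D, POLG E, POLG G or POLG H (adjusted p up to 0.0582), and without WT C and WT D none of the 5 passed. Adipocytes make Fabp4 and Pparg, and their 8 markers summed to at most 1.26 FPKM in POLG, with Adipoq at 0 in POLG F, POLG G and POLG H. In WT C and WT D these markers summed to 3.68 and 6.0 FPKM, against 0.447 and 0.0951 FPKM in WT A and WT B.

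Macrophages also make Fabp4, and their 5 genes summed to 39.8 to 50.4 FPKM in WT and 47.3 to 59.4 FPKM in POLG, with positive fold changes in all 5, against 31.7% of all genes. None of them passed, and 2 had an unadjusted limma p under 0.05, as had 2277 of all 10236 genes. Heart muscle genes summed to less in POLG, with 12038 to 14368 FPKM in WT and 9008 to 11416 FPKM in POLG. Of 6 tested, 2, Tnni3 and Myh6, passed as lower (limma adjusted p = 0.00892 and 0.0370), against 2.12% of all genes. Without WT C and WT D neither passed (0.0820 and 0.152), and Myh6 also missed the threshold without WT C, WT D or any 1 POLG library (up to 0.110). With all libraries kept, the limma adjusted p of Myh6 was 0.0807 under median ratio scaling and 0.0979 with no filter on low values. Smooth muscle genes summed to 71.6 to 98.0 FPKM in WT and 26.8 to 55.0 FPKM in POLG. All 3 tested had an unadjusted limma p under 0.05, against 2277 of all 10236 genes. Of these, 1, Myh11, passed as lower, against 2.12% of all genes. Its limma adjusted p was 0.0370, and 0.0515 to 0.0959 when 1 library at a time was left out. Fibroblast genes summed to 72.6 to 102 FPKM in WT and 43.3 to 71.7 FPKM in POLG. None of 5 passed, and 2 had an unadjusted limma p under 0.05, against 2277 of all 10236 genes. Pericytes, which wrap the capillaries, had 8 genes that summed to 109 to 168 FPKM in WT and 99.0 to 159 FPKM in POLG, and none passed, adjusted or not. Of the atrial and mesothelial genes none passed. An unadjusted limma p under 0.05 was found for 1 of 2 tested mesothelial genes, against 2277 of all 10236 genes. The part of these cell types in the levels of the 10 genes was not tested.

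Within the groups, the 10 genes did not vary as 1 block. After each group's mean was removed, Pecam1 and Cdh5 (r = 0.94), Cdh5 and Kdr (0.94) and Pecam1 and Kdr (0.86) varied together over the 8 libraries, and Meox2 followed them (0.80 to 0.85). Against the index of 16 genes the same correlation was 0.96 for Kdr, 0.94 for Cdh5, 0.92 for Pecam1, 0.66 for Aqp1, 0.28 for Rbp7 and -0.24 for Gpihbp1. WT C and POLG H were low in Pecam1, Cdh5, Kdr and Meox2. The libraries share their depth as well as their cells, so these correlations over 8 points are a description only.

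Rbp7 and Gpihbp1 varied together (0.71), Aqp1 and Gpihbp1 in opposite directions (-0.61), and Aqp1 and Rbp7 with little relation (0.08). Among 4331 genes that averaged 5 FPKM or more, the 5 whose within-group pattern was most like that of Aqp1 were Ipo5 (r = 0.99), Ndel1 (0.98), Odc1 (0.97), Nt5dc3 (0.97) and Lrpprc (0.96), and 46 genes reached 0.9. For Rbp7 they were Mt2 (0.96), Gins4 (0.96), Hsd17b11 (0.94), Pdk4 (0.93) and Mt1 (0.92), and 10 genes reached 0.9. The log2 fold changes of the 5 genes like Aqp1 lay between -0.22 and 0.09, against -1.62 for Aqp1. Those of the genes like Rbp7 were 1.80 for Pdk4, 0.94 for Mt2, 0.79 for Hsd17b11, 0.33 for Mt1 and -0.13 for Gins4, against 1.30 for Rbp7.

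**Figure D4:**
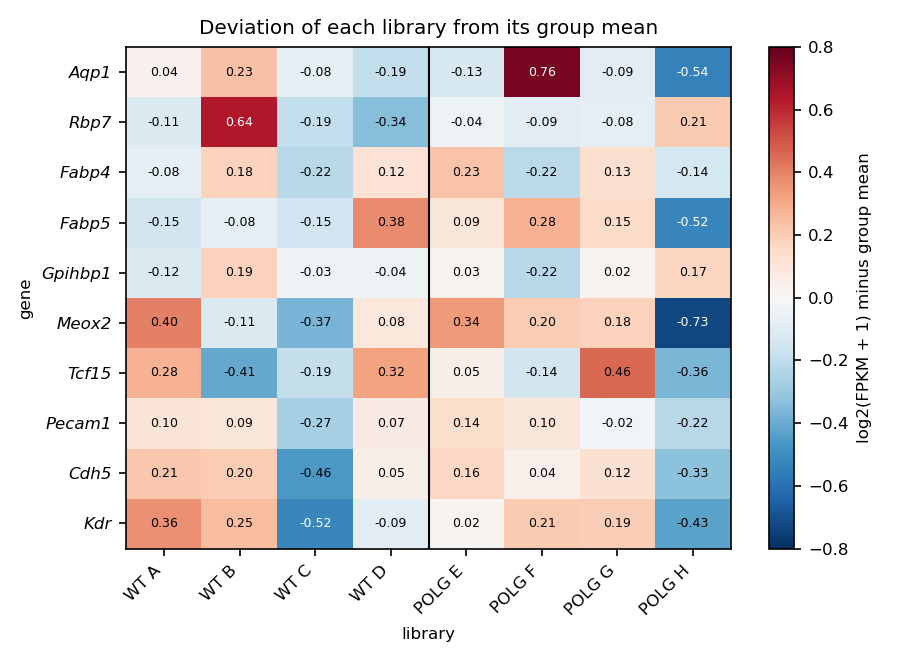
Deviation of log2(FPKM + 1) from the group mean (color, with the value in each cell) for the 10 genes (rows) in 8 libraries (columns). WT C and POLG H are low in Pecam1, Cdh5, Kdr and Meox2, while Aqp1 is highest in POLG F (0.76) and Rbp7 in WT B (0.64).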

How the data were processed

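Stranded poly(A) libraries were made from the right ventricle of 4 WT and 4 POLG mice. The authors aligned the reads to mm10 (HISAT2), assembled and normalized them (StringTie), and deposited FPKM for 55421 genes, where 0.0001 stands for 0. Per the submitters' processing notes cutadapt, FastQC and edgeR were also used, the last for the authors' own test. Tool versions: not given in the sources used here. A ratio (fold change) and its log2, which the authors computed from the FPKM and deposited beside them, were not used.

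FPKM are not counts, and whole reads could not be recovered, so a count test was not possible. The main test was limma 3.58.1 (R 4.3.3) on log2(FPKM + 1), using a mean-variance trend, and was restricted to 10236 genes that averaged 1 FPKM or more. The threshold was an adjusted p (Benjamini-Hochberg) of 0.05. The step was tested on simulated data with noise independent between genes. Differences that many genes of a library share were not simulated, so this does not vouch for the counts of genes that passed. The depth estimate assumes that low FPKM are whole multiples of the value of 1 fragment, which 50.1% to 52.2% of them met within a tolerance of 0.05 fragments. Alternatives were other pseudocounts, filters, scalings and prior, and libraries left out.

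The 10 genes and the 22 marker lists were chosen with earlier results of these data known. All 10 genes were reported in full. From each list, up to 4 genes of smallest adjusted p could be named, and for Aqp1 and Rbp7 the 5 genes of highest within-group correlation. Lpl, Aqp8, Aplnr, Cldn5 and Adipoq, the ratios between genes, the promoter motifs and the search for shared stretches were chosen after values were seen. Gene positions come from GENCODE release M21, promoters from RefSeq GRCm38.p6.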

Additional observations from a re-analysis of the deposited data

Results flagged for a closer look

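In 20 sets of 4 values, the 10 genes in each genotype, 3 held a library far from the other 3 of its group by Dixon's criterion, where chance gives about 1 in 20. Rbp7 in POLG H was 20.5 FPKM, above the other POLG libraries. Fabp5 in WT D was 7.29 FPKM, above the other WT libraries. Pecam1 in WT C was 14.1 FPKM, below the other WT libraries. These 3 libraries are also those of least depth, and the part of depth in these values was not tested.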

How the results depend on the processing

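Over 18 alternatives the fold change kept its sign for Aqp1 (-1.87 to -1.44), Rbp7 (0.96 to 1.51), Fabp4 (0.43 to 0.62), Gpihbp1 (0.43 to 0.64) and Kdr (0.13 to 0.57), and crossed 0 in at least 1 alternative for the other 5 genes. Relative to 16 endothelial genes, the difference ranged from -1.95 to -1.64 for Aqp1 and from 1.03 to 1.33 for Rbp7 without any 1 library. As these groups do not overlap, leaving out libraries could not turn its direction. The counts of genes that passed were less stable. Over all genes, 71 higher and 217 lower became 19 and 58 with no filter on low values, 129 and 122 under median ratio scaling, 136 and 139 under quantile normalization, and 12 and 16 without WT C and WT D. Without WT C, WT D and POLG H, an alternative chosen after seeing the data as was the reference to Pecam1, Cdh5 and Kdr, they were 6 and 11. Without any 1 library they ranged from 11 to 62 and from 31 to 116. Of the endothelial lists, 1 gene passed as higher, against 2 with a pseudocount of 5 or a filter at 5 FPKM, 4 under median ratio scaling or quantile normalization, 0 without WT C and WT D (also with POLG H left out), and 1 to 2 without any 1 library. Of the aquaporin, lipid-binding and retinoid lists, 1 gene passed as higher, against 0 with no filter, under quantile normalization and without WT C and WT D (also with POLG H left out), and 0 to 1 without any 1 library. Of the other cell types, 4 higher and 3 lower became 0 and 1 with no filter and 0 and 0 without WT C and WT D (also with POLG H left out), and ranged from 0 to 4 and from 1 to 2 without any 1 library. Apart from the smaller number of libraries or the larger number of genes tested, the cause was not tested. No paired analysis was possible because the libraries carry letters that WT and POLG do not share. FPKM without counts give no interval for a single library, and Meox2 and Tcf15 rest on the fewest fragments of the 3 genes for which they were estimated.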
